A study of Mus musculus with 6 samples.

Results

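The antiviral effector genes that type I interferon induces were followed in cultured heart cells given BMP2, with or without a BMP receptor inhibitor. A list of 48 such genes was matched by symbol to the deposited counts, and 45 of the 32245 gene symbols in the files were on the list with at least 10 counts summed over the 6 libraries. Epsti1 had 4 counts in all and was left out by that minimum, and Mx1 and Mx2 were not analysed here. The cells were primary cardiomyocytes from the hearts of wild type neonatal mice, and polyadenylated RNA was sequenced. The 3 groups, each with 2 libraries, received PBS (the vehicle), BMP2 (bone morphogenetic protein 2), or BMP2 with dorsomorphin (written BMP2+DM), a small molecule described by the submitters as a BMP receptor inhibitor and known to inhibit the kinase AMPK as well. Doses, times and the exact age were not given in the sources used here, and no group received dorsomorphin alone. The labels do not say whether the 2 libraries of a group came from separate cultures or animals, so the p-values measure the spread between these libraries, which may be technical.

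Type I interferons bind the receptor made of IFNAR1 and IFNAR2, and the kinases JAK1 and TYK2 then activate transcription factors that join IRF9 in a complex that binds the interferon-stimulated response element in DNA. The genes it switches on block infection at successive steps: membrane proteins hinder viral entry and release, sensors bind foreign nucleic acid, and enzymes stop translation, degrade RNA or deplete nucleotides. Many cell types also hold a low level of these transcripts without infection.

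Gene counts per library ranged from 10106667 to 14366042, and the members took 0.171% and 0.174% of them in PBS, 0.0729% and 0.0768% in BMP2, and 0.0832% and 0.0847% in BMP2+DM. Of the 15 cardiomyocyte markers examined, 15 were detected, and 10 fibroblast markers summed to between 10285 and 11990 CPM (depth-scaled counts) in a library. PBS replicate 1 and BMP2 replicate 1 stood apart from the other libraries in 2 repeat-derived gene models (Gm42418 and AY036118), which took 1.31% and 2.10% of their gene counts against 0.0702% to 0.0928% elsewhere. Results that rest on these libraries are therefore also given without both of them.

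The sequences below show the response element letters upstream of some members, which were picked by no fixed rule and mostly hold a match. Letters were read from the RefSeq promoter table (GRCm38.p6), which held 36 of the 45 members. Each line gives the 200 bases before the RefSeq start site, 5′ to 3′ on the strand of the gene, and capitals mark the letters searched for, which are GAAA, any 2 bases and GAAA again, or their reverse complement. Ifit1, Ifit3 and Ifit3b lie near each other on chromosome 19, and their stretches are at chr19:34640689-34640888, chr19:34583329-34583528 and chr19:34607757-34607956, all on the plus strand. Isg15 is at chr4:156200819-156201018, Rsad2 at chr12:26456453-26456652 and Bst2 at chr8:71537473-71537672, all on the minus strand. Cmpk2, the neighbour of Rsad2, is shown because its 300-base window held no match although its decrease was as large as that of Rsad2. Its stretch is at chr12:26469015-26469214 on the plus strand. Cmpk2 was not alone in this, since 20 members in the promoter table held no match. Ifi44, Oasl1, Oasl2, Helz2 and Phf11d, which also fell with BMP2, were among them and are not shown.
Ifit1: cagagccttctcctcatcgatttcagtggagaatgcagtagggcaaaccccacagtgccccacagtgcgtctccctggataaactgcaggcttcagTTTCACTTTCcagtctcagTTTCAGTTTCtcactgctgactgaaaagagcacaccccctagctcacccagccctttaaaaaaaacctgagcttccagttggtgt
Ifit3: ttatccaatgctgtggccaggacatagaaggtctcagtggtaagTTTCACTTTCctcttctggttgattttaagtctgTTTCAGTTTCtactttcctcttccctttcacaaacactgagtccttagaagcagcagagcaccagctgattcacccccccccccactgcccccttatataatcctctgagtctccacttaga
Ifit3b: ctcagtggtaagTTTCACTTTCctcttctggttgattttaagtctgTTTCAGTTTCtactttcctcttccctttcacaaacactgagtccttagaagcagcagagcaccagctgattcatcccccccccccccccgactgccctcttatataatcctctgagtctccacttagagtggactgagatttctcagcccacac
Isg15: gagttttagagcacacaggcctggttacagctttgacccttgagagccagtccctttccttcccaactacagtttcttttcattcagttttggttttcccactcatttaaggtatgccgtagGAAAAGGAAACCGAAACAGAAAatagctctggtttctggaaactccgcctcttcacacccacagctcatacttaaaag
Rsad2: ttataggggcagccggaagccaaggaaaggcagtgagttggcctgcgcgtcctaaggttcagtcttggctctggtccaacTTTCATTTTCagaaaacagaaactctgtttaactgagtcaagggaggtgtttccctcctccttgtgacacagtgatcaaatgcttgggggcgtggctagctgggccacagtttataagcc
Bst2: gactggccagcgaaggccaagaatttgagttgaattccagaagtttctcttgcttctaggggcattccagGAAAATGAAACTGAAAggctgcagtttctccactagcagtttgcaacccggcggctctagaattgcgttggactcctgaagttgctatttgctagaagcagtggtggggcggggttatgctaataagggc
Cmpk2: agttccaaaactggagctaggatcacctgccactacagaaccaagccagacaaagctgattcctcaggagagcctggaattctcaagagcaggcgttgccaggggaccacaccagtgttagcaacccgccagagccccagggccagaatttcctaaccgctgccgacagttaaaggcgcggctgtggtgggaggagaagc

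Within windows from 250 bases before to 50 after the start site, searched on both strands, these letters were present for 16 of the 36 members (44.4%) and for 3.99% of the 27025 genes in the table. The upstream stretches of Ifit1, Ifit3 and Ifit3b each held 2 separate matches on the opposite strand, Rsad2 held 1, and Isg15 and Bst2 held 3 and 2 that overlap each other. The median log2 fold change with BMP2 against PBS was -2.92 for the 16 members with a match and -1.25 for the 20 without, given as a description with no test. The 9 members with no promoter entry are in neither median, and either could differ with them. These were Oas2, Dhx58, Zbp1, Ifi204, Usp18, Rtp4, Parp9, Parp14 and Ifi27, with values from -3.82 (Oas2) to -0.85 (Ifi27). A match was no requirement for a large value: without one, members ranged from -3.82 (Cmpk2) to 0.04 (Ifitm1). With one, they ranged from the fitted -7.33 of Oas3, which had no BMP2 counts, to -0.39 of Ifitm2. The letters TTCNNNGAA of the gamma-activated site, another interferon-responsive element, were found for 8 of 36 members (22.2%) and 9.55% of all genes. The letters GGCGCC, bound by SMAD proteins, were found for 2 of 36 members (5.56%) and 13.4% of all genes.

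**Figure D1:**
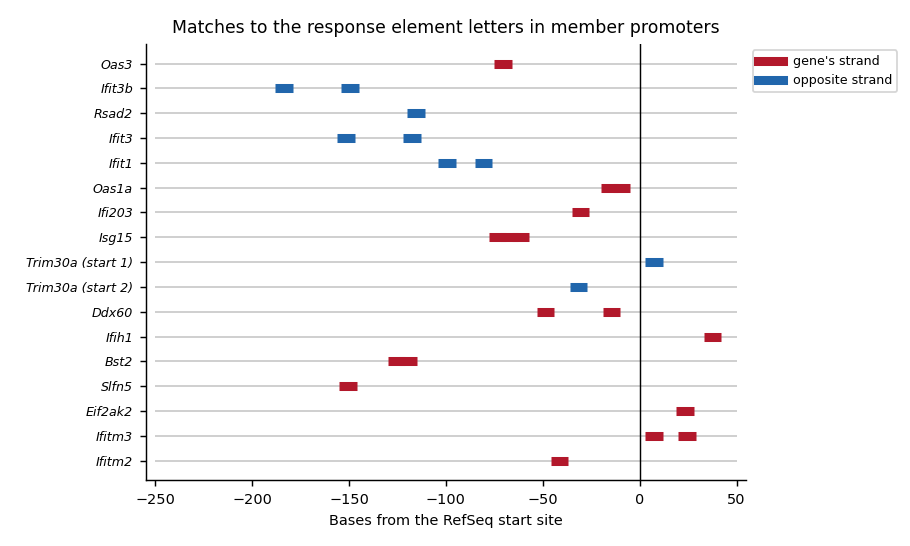
Positions of matches to the response element letters in the 300-base windows of the 16 members that hold one; the horizontal axis is the distance in bases from the RefSeq start site, and colour gives the strand relative to the gene. Genes run from the most to the least negative BMP2 against PBS value, and Trim30a has 2 start sites with a match.

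Most of the antiviral genes were lower in the cells given BMP2. Of the 45 members, 42 fell in BMP2 against PBS, where 9.29% of all 14378 genes tested fell, and 33 of them fell at least 2-fold, against 2.3% of all genes. The median log2 fold change was -2.01 over the members and 0.00 over all genes tested. Their summed level was 1760.1 and 1764 CPM (counts scaled to a common depth with edgeR's TMM factors) in the PBS libraries and 738 and 760.1 in the BMP2 libraries, so 42.5% was left. No member rose: 0 of 45 were called higher by edgeR, beside 6.55% of all genes. DESeq2 called 0 members higher, beside 689 of the 14437 genes it tested. At an unadjusted p under 0.05 in edgeR 0 members were higher, where 4026 of 14378 genes passed in either direction. A rise of at least 2-fold that passed the test was seen for 0.73% of all genes. The BMP2 libraries lay wholly below the PBS libraries for 43 of the 45, a pattern seen for 28% of all genes. Ifitm1, Herc6 and Isg20 were the 3 members not called. The decrease was uneven, since 23 members fell at least 4-fold and 13 at least 8-fold. A test was counted as passed at a Benjamini-Hochberg adjusted p under 0.05 in edgeR's quasi-likelihood fit over all genes, and log2 fold changes are given with the standard error (SE).

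**Figure D2:**
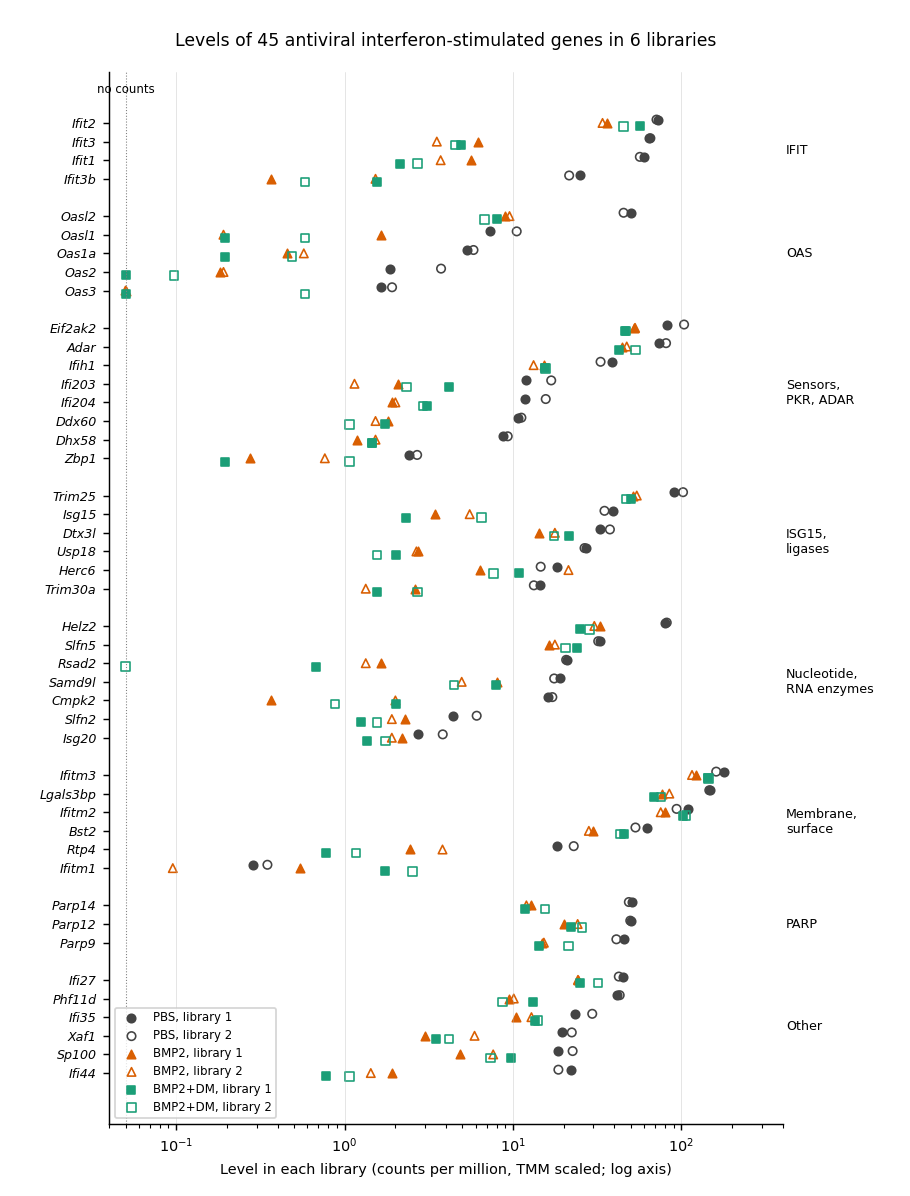
Level of each of the 45 members in each library, in CPM on a log axis, grouped by role and ordered within a role by level; filled and open symbols are replicates 1 and 2, and a library with no counts is drawn on the dotted line. The BMP2 and BMP2+DM symbols lie left of the PBS symbols for most genes, with Ifitm1, Herc6 and Ifitm2 as visible exceptions.

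The IFIT genes, whose proteins bind viral RNA and hold back its translation, all fell in BMP2 against PBS (4 of 4, median log2 fold change -3.68). Ifit1 binds RNA whose cap lacks the methylation of the host. Ifit1 (ENSMUSG00000034459.8, chr19:34640871-34650009, plus strand, protein coding) was at 59.9 and 56.8 CPM in PBS, 5.64 and 3.72 in BMP2, and 2.13 and 2.72 in BMP2+DM. The 3 groups did not overlap, and the log2 fold change of BMP2 against PBS was -3.63 ± 0.19 (SE, adjusted p = 2.25e-10). Ifit3 was at 64.1 and 65.6 CPM in PBS, 6.18 and 3.53 in BMP2, and 4.94 and 4.57 in BMP2+DM. Its PBS libraries stood far above the other 4, which overlapped each other, and it fell with BMP2 by a log2 fold change of -3.73 ± 0.19 (adjusted p = 2.18e-10). Ifit3b, a near copy, went from 24.9 and 21.6 CPM to 0.364 and 1.53 (log2 fold change -4.62 ± 0.38). Of the 50-base stretches in Ifit3 transcripts, 51.2% also occur in other genes, mainly Ifit3b, so counts could be lost or divided between them; summed as 1 gene, they left 41 of 44 members called lower. Ifit2 was the mildest: 72.5 and 71.3 CPM in PBS against 36.5 and 34.1 in BMP2, a log2 fold change of -1.03 ± 0.12 (adjusted p = 6.69e-06).

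The OAS family makes short oligoadenylates that activate the nuclease RNase L, or resembles the genes that do. All 5 members fell with BMP2 (median -3.42). Oasl2, the most abundant by CPM, was at 50.4 and 45.4 CPM in PBS, 9.0 and 9.55 in BMP2, and 8.04 and 6.80 in BMP2+DM. The decrease with BMP2 was -2.37 ± 0.16 on the log2 scale (adjusted p = 6.99e-09). Oas1a was at 5.36 and 5.83 CPM in PBS at 0.455 and 0.573 in BMP2, and at 0.194 and 0.486 in BMP2+DM, a log2 fold change with BMP2 of -3.42 ± 0.53 (adjusted p = 0.00017). Oas1a shares 57.6% of its 50-base stretches with other genes, mainly Oas1g, so its level is uncertain. Oas3 had 45 counts over the PBS libraries and 0 over the BMP2 libraries, which makes it at least 12.6-fold lower in BMP2 when the empty group is given the upper limit of 3 counts. With Oas3 set at that bound (-3.66 on the log2 scale), the median over the members necessarily stays at -2.01, since the fitted value and the bound both lie below it. The OAS-like gene Oasl1 fell by 3.25 on the log2 scale. Low counts made Oas2 and Oas3 fragile: without PBS replicate 2 the adjusted p was 0.105 for Oas2 and 0.0538 for Oas3, and without BMP2 replicate 1 or 2 it was 0.0527 and 0.0505 for Oas3.

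All 8 nucleic acid sensors and RNA-dependent enzymes fell with BMP2 (median -2.50), from -0.76 for Adar to -3.14 for Ifi203. Ifi203 and Ifi204 encode PYHIN proteins that bind DNA, and both share part of their sequence with other PYHIN genes, so their levels are uncertain. Ifi204 was at 11.8 and 15.7 CPM in PBS, 1.91 and 2.0 in BMP2, and 3.10 and 2.92 in BMP2+DM, a log2 fold change with BMP2 of -2.80 ± 0.29 (adjusted p = 1.84e-06). Ifi203 was at 12 and 16.9 CPM in PBS, 2.09 and 1.15 in BMP2, and 4.16 and 2.33 in BMP2+DM, a log2 fold change with BMP2 of -3.14 ± 0.35. For both genes the BMP2+DM libraries sat between the other groups, but neither differed by the test between BMP2+DM and BMP2 (adjusted p = 0.30 for Ifi204 and 0.145 for Ifi203). Among the RNA sensors, Ifih1 (MDA5, a sensor of long double-stranded RNA) fell by 1.33 on the log2 scale, and Dhx58 (LGP2, its helper) fell by 2.73. The helicase gene Ddx60 fell by 2.71. Eif2ak2, the kinase PKR that halts translation on double-stranded RNA, was at 81.8 and 104 CPM in PBS and at 52.1 and 53.2 in BMP2. Adar, which edits adenosines in double-stranded RNA, changed least of the group, with a log2 fold change of -0.76 ± 0.12; 16.8% of its exonic bases lie opposite exons of Chrnb2. Zbp1, a sensor of left-handed nucleic acid, was at 2.43 and 2.70 CPM in PBS and lost its call whenever any 1 of the 4 PBS or BMP2 libraries was left out (adjusted p = 0.0729 to 0.265).

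Of the 6 genes of the ISG15 system and related ubiquitin ligases, 5 fell with BMP2 (median -1.96). Isg15 (ENSMUSG00000035692.6, chr4:156199424-156200818, minus strand), the ubiquitin-like modifier itself, was at 39.5 and 35.0 CPM in PBS, 3.46 and 5.54 in BMP2, and 2.32 and 6.51 in BMP2+DM. PBS stood well apart, the other groups overlapped, and the log2 fold change with BMP2 was -3.05 ± 0.28 (adjusted p = 5.24e-07). Usp18, which removes ISG15 from proteins and also restrains the interferon receptor, was at 27.2 and 26.6 CPM in PBS, 2.73 and 2.67 in BMP2, and 2.03 and 1.55 in BMP2+DM. Its log2 fold change with BMP2 was -3.31 ± 0.22 (adjusted p = 7.93e-09). The ligases Trim25, Dtx3l and Trim30a fell by 0.86, 1.13 and 2.79 on the log2 scale. Herc6, the main ISG15 ligase of the mouse, was at 18.2 and 14.6 CPM in PBS, 6.37 and 21.4 in BMP2, and 10.8 and 7.68 in BMP2+DM. The BMP2 libraries lay on either side of both PBS libraries, and the log2 fold change was -0.25 ± 0.34 (adjusted p = 0.688). Without BMP2 replicate 2, Herc6 was called lower (log2 fold change -1.37, adjusted p = 0.00442), and without BMP2 replicate 1 the value was 0.38.

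Among the enzymes that act on nucleotides and RNA, 6 of 7 fell with BMP2 (median -1.35). Rsad2 (viperin, chr12:26442746-26456452, minus strand), which makes a chain-ending nucleotide, was at 21.1 and 20.7 CPM in PBS, 1.64 and 1.34 in BMP2, and 0.678 and 0 in BMP2+DM. The groups did not overlap, and the log2 fold change with BMP2 was -3.80 ± 0.35 (adjusted p = 4.53e-07). The neighbouring gene Cmpk2 (chr12:26469204-26479837, plus strand), a mitochondrial nucleotide kinase, went from 16.2 and 17.2 CPM to 0.364 and 2.0, a log2 fold change of -3.82 ± 0.42. Helz2, a helicase, was at 79.5 and 82 CPM in PBS, 32.9 and 30.5 in BMP2, and 25 and 28.6 in BMP2+DM. Its decrease with BMP2 was smaller but tight, -1.35 ± 0.11 on the log2 scale (adjusted p = 1.5e-07). Isg20, an RNA exonuclease, was low throughout (2.72 and 3.83 CPM in PBS, 2.18 and 1.91 in BMP2) and was not called (adjusted p = 0.364). Samd9l, which restrains translation and growth, fell by 1.5 on that scale, and Slfn5 fell by 0.93. Slfn2, of the same schlafen family, was called at adjusted p = 0.0272 and lost the call when any 1 of the 4 PBS or BMP2 libraries was left out (0.0641 to 0.244).

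The membrane barrier and surface genes included the most abundant members, and 5 of 6 fell with a median log2 fold change of -0.69, the smallest of the 8 roles. Per kilobase of exon, Ifitm3 led in PBS with a mean of 251 CPM per kilobase (RPKM), followed by Ifitm2 with 156, Bst2 with 64.2 and Lgals3bp with 51.6. Isg15 was next with 49.3, and Ifit3 had 37.2. Ifitm2 is uncertain, because 48.5% of its 50-base stretches also occur in other genes, mainly the overlapping model Gm45717. The 6 membrane barrier and surface genes together held 28.3% of the members' CPM in PBS, 41.4% in BMP2 and 44.7% in BMP2+DM. The IFITM proteins hinder the fusion of viral with cellular membranes. Ifitm3 was at 179 and 161 CPM in PBS and at 122 and 116 in BMP2, a log2 fold change of -0.52 ± 0.07 (adjusted p = 5.86e-05). Ifitm2 was at 109.9 and 93.9 CPM in PBS and at 80.2 and 75.5 in BMP2, a log2 fold change of -0.39 ± 0.09 (adjusted p = 0.00597). The Ifitm2 call did not hold without PBS replicate 1 (adjusted p = 0.128) or BMP2 replicate 2 (0.0673). Bst2 (tetherin), which ties budding virus to the cell surface, was at 62.5 and 53.5 CPM in PBS and at 30.0 and 28.3 in BMP2, a log2 fold change of -0.99 ± 0.12 (adjusted p = 1.07e-05). Lgals3bp, a secreted glycoprotein that binds galectins, was at 147 CPM in each PBS library and at 77.0 and 85.0 in BMP2, then 69.1 and 75.6 in BMP2+DM (log2 fold change with BMP2 -0.86 ± 0.08). Rtp4, of the receptor transporter family, was the exception in size: 18.4 and 23.0 CPM in PBS against 2.46 and 3.82 in BMP2, a log2 fold change of -2.72 ± 0.26 (adjusted p = 8.82e-07). Ifitm1 had 8 counts in all over the PBS libraries and 7 over the BMP2 libraries.

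**Figure D3:**
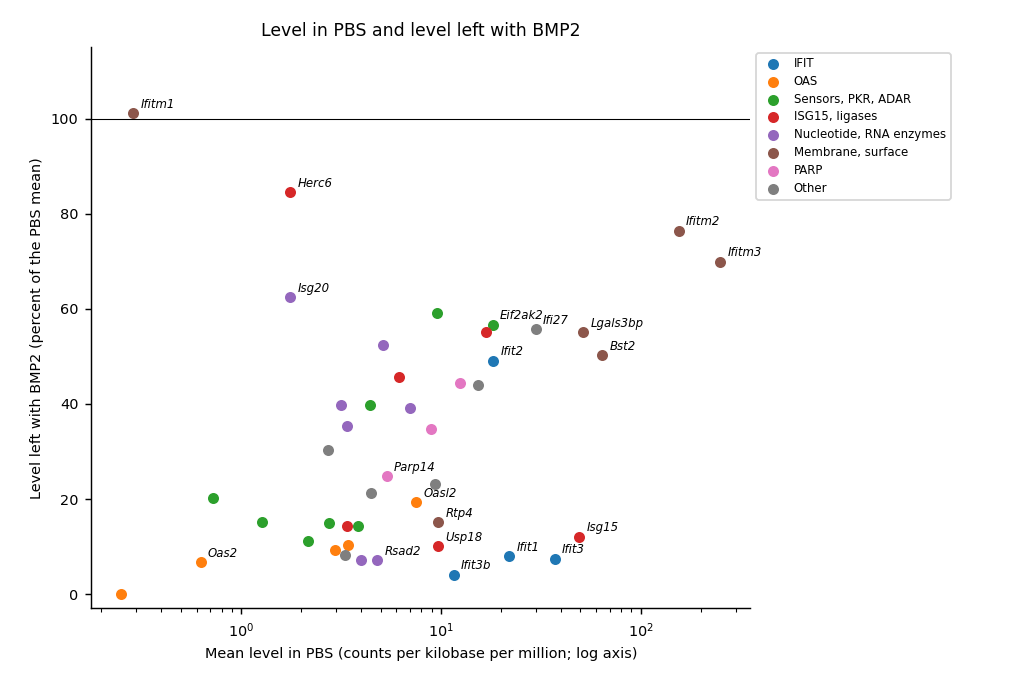
Mean level in PBS, in CPM per kilobase of exon on a log axis, against the mean level left with BMP2 as a percentage of the PBS mean, for each of the 45 members coloured by role. The 4 most abundant genes (Ifitm3, Ifitm2, Bst2 and Lgals3bp) kept more than 50%, while Isg15, Ifit3 and Ifit1 kept less than 25%.

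Relative to the PBS mean, 9 members kept less than 10% of their CPM with BMP2, 23 kept less than 25%, 33 less than 50% and 42 less than 75%. The PARP genes, which encode ADP-ribosyltransferases, all fell (3 of 3, median -1.52). Parp14 was at 51.2 and 48.8 CPM in PBS, 12.7 and 12 in BMP2, and 11.8 and 15.5 in BMP2+DM, with a log2 fold change with BMP2 of -2.01 ± 0.15 (adjusted p = 4.3e-08). Parp9, partner of the ligase Dtx3l and its neighbour on the opposite strand, was at 45.5 and 41.2 CPM in PBS, 14.9 and 15.3 in BMP2, and 14.3 and 21.4 in BMP2+DM (log2 fold change with BMP2 -1.52 ± 0.17). Parp12, the other transferase, fell by 1.17 on the log2 scale. Parp9 and Dtx3l overlap over 9.4% of the exonic bases of Parp9, where unstranded counts could not be told apart. The other 6 interferon-induced genes all fell (median -1.91). Ifi44 was at 22.2 and 18.6 CPM in PBS, 1.91 and 1.43 in BMP2, and 0.775 and 1.07 in BMP2+DM, a log2 fold change with BMP2 of -3.60 ± 0.27 (adjusted p = 4.14e-08). Phf11d was at 41.4 and 43.1 CPM in PBS, 9.46 and 10.1 in BMP2, and 13.2 and 8.65 in BMP2+DM, a log2 fold change with BMP2 of -2.11 ± 0.18. Ifi27, Ifi35, Xaf1 and Sp100 fell by 0.85 to 2.23 on the log2 scale.

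Without PBS replicate 1 and BMP2 replicate 1, the libraries rich in repeat-derived counts, 33 of 45 members were called lower and 0 higher, beside 2.74% and 1.16% of all genes, with a median of -1.82. That fit had 1 library in each of those groups, whose spread was assumed to equal that within BMP2+DM.

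Genes listed for interferon signalling and for nucleic acid sensing were examined for the same comparison. Of 17 signalling genes, 5 fell with BMP2 and 0 rose, beside 9.29% and 6.55% of all genes. Irf7, a transcription factor that interferon itself induces, was at 26 and 36.9 CPM in PBS, 4.91 and 3.63 in BMP2, and 4.16 and 2.04 in BMP2+DM. The log2 fold change of Irf7 with BMP2 was -2.87 ± 0.26 (adjusted p = 3.89e-07). Among the others that fell, Stat2 fell by 1.25 on the log2 scale, Irf9 by 0.95 and Irf1 by 0.54. The receptor genes were not called: Ifnar1 was at 74.8 and 69.0 CPM in PBS and at 69.7 and 73.5 in BMP2, with a log2 fold change of -0.01 ± 0.09, and Ifnar2 had -0.18 ± 0.10. Of 21 interferon genes, 20 had no count in any library, and Ifnab had 1 count. Of 11 tested genes that lead from nucleic acid sensing to interferon, Ddx58 (RIG-I), Tlr3 and Zc3hav1 fell and Mavs, the mitochondrial adaptor, rose (log2 fold change 0.52 ± 0.11).

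Markers of several cell types also changed in BMP2 against PBS, where 9.29% of all genes fell and 6.55% rose. The 17 leukocyte markers summed to 98.1 and 95.5 CPM in PBS, 73.0 and 72.8 in BMP2, and 69.0 and 65.8 in BMP2+DM; 7 could be tested and 1, Lyz2, fell with BMP2. Siglech had no counts, and Ptprc had 0 to 7 counts in a library. Of 8 epicardial and mesothelial markers, 6 fell with BMP2, and their sum was 177 and 174 CPM in PBS and 101 and 100.2 in BMP2. Cardiomyocyte markers fell for 13 of 15, with a summed level of 27884 and 27681 CPM in BMP2 against 36513 and 36018 in PBS. Fibroblast markers went both ways, with 5 of 10 lower and 2 higher (Col3a1 with a log2 fold change of 0.54 and Dpt with 0.56), and their sum was 97.1% of PBS. Of 10 endothelial markers, 1 fell (Emcn, -0.95) and 1 rose (Kdr, 0.63), and their sum was 88.5% of PBS. The part of these shifts in the values of the antiviral genes was not tested, and in bulk RNA fewer cells of a type and less RNA per cell cannot be told apart.

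In the libraries given dorsomorphin with BMP2, the antiviral genes were again low. Compared with BMP2 alone, 3 of 45 members fell, 6.67% beside 4.44% of all genes, and 5 rose, 11.1% beside 4.28%. The median log2 fold change was 0.10. At least 2-fold changes were called for 2 lower and 1 higher member, beside 0.89% and 0.626% of all genes. The summed level was 817 and 832 CPM, 46.8% of PBS. In the same libraries 7 of 7 BMP-SMAD target genes fell against BMP2, while 3 of the 7 had risen with BMP2 against PBS. Id1, a direct target, was at 55.6 and 51.4 CPM in PBS, 46.6 and 49.7 in BMP2, and 16.9 and 16.1 in BMP2+DM, so it did not pass the test with BMP2 (adjusted p = 0.429) and was below both other groups with dorsomorphin. The groups did not overlap for 13 members that were lower and 11 that were higher, beside 24.9% and 25.4% of all genes. Of the 17 interferon signalling genes, 0 were called in this comparison. At an unadjusted p under 0.05 in edgeR there were 2 of them, beside 3138 of all 14378 genes.

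**Figure D4:**
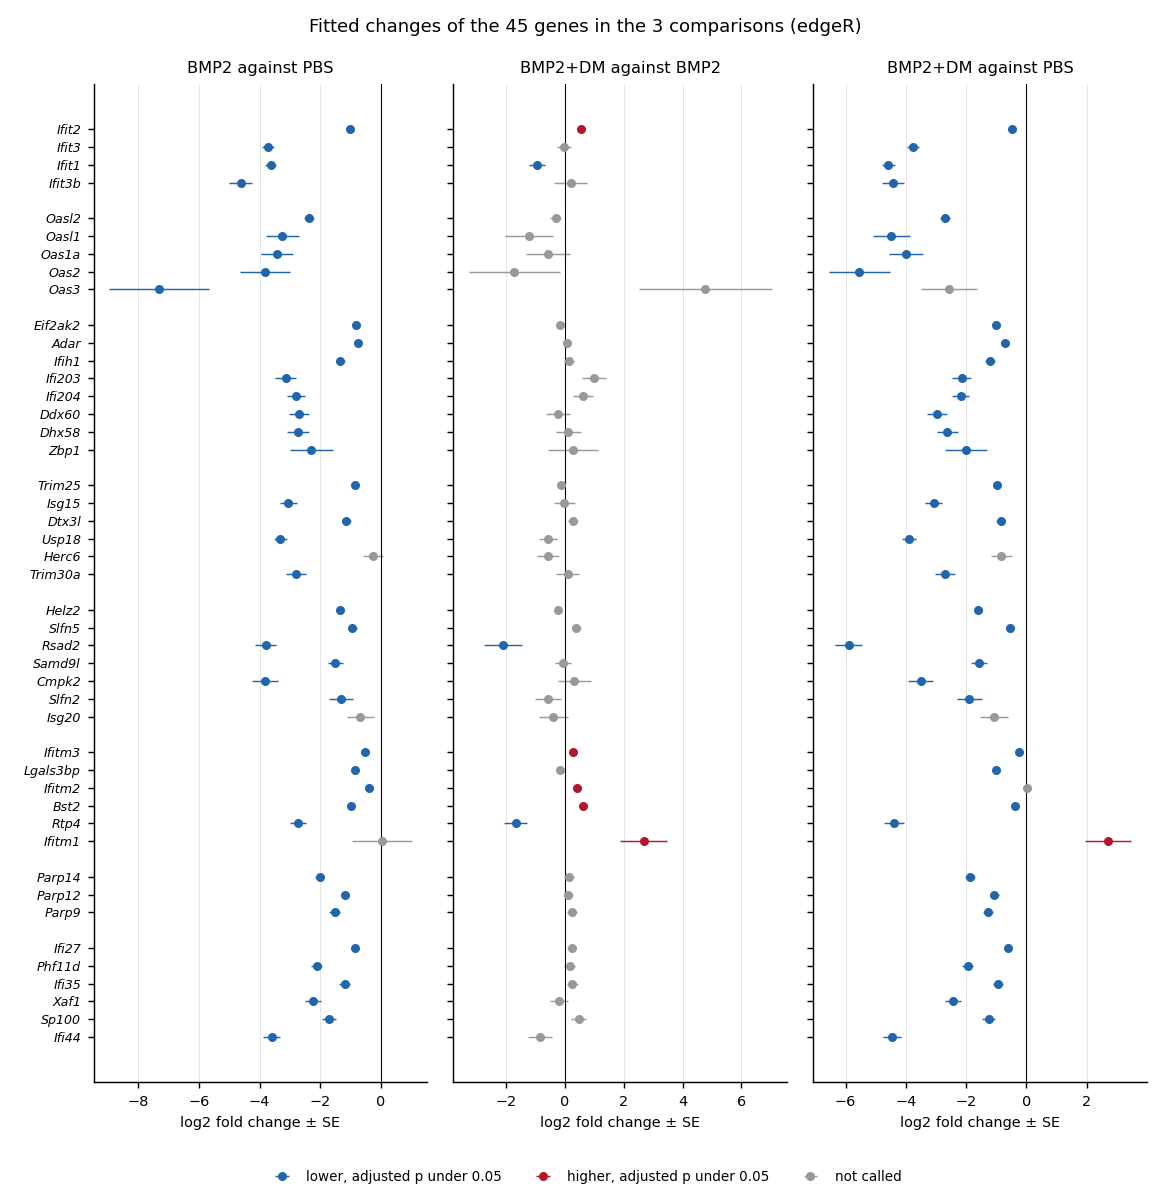
Log2 fold change with its SE for each of the 45 members in the 3 comparisons, grouped by role; blue and red mark members lower or higher at an adjusted p under 0.05, and grey marks members not called. The left and right panels lie mostly below 0 (medians -2.01 and -1.89), the middle panel lies around 0 (median 0.10), and the fitted value of Oas3 against a group with no counts is not a measured size.

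The 5 members that rose with dorsomorphin were Ifit2 and 4 of the 6 membrane and surface genes. Bst2 was at 46.0 and 43.4 CPM in BMP2+DM, above both BMP2 libraries and below both PBS libraries, with a log2 fold change against BMP2 of 0.62 ± 0.12 (adjusted p = 0.00331). Ifitm3 was at 143 and 145 CPM (log2 fold change 0.28 ± 0.07, adjusted p = 0.0219), also between the other groups. Ifitm2 was at 102 and 107 CPM (0.42 ± 0.09, adjusted p = 0.00636), within the range of the PBS libraries. Ifit2 was at 57.2 and 45.3 CPM (0.54 ± 0.12, adjusted p = 0.00858), between BMP2 and PBS. Ifitm1 had 18 and 26 counts in the BMP2+DM libraries and between 1 and 6 in each other library, which is 1.74 and 2.53 CPM and a log2 fold change of 2.68 ± 0.79 (adjusted p = 0.0433). Cell type markers changed in this comparison too, where 4.44% of all genes fell and 4.28% rose. Of 8 epicardial and mesothelial markers 3 rose (Msln with a log2 fold change of 1.44, Upk3b with 1.44 and Krt18 with 0.54) and 1 fell, and of 10 endothelial markers 5 fell. Fibroblast markers had 4 lower and 4 higher of 10, and cardiomyocyte markers had 5 of 15 higher. Of the 7 leukocyte markers tested, 1 fell (Csf1r, log2 fold change -0.63) and 0 rose. The part of these marker changes in the rises of the members was not tested.

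The 3 members that fell further with dorsomorphin were already low with BMP2. Rtp4 was at 0.775 and 1.17 CPM, a log2 fold change against BMP2 of -1.68 ± 0.39 (adjusted p = 0.00941). Ifit1 went down by a log2 fold change of -0.95 ± 0.27 (adjusted p = 0.0354). Rsad2 had 7 and 0 counts in the BMP2+DM libraries against 18 and 14 in BMP2 (log2 fold change -2.10 ± 0.64, adjusted p = 0.0495).

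These 8 calls differed in how far they rested on single libraries. The Bst2 call held without any 1 of the 6 libraries (adjusted p = 0.00571 to 0.041), and Ifitm2 lost its call only without BMP2 replicate 2 (0.0726). Rtp4 and Ifit2 lost it without BMP2 replicate 2 (0.109 and 0.0835) or BMP2+DM replicate 1 (0.0721 and 0.135). Ifitm3 lost it without any 1 of the 4 BMP2 or BMP2+DM libraries (0.0608 to 0.16). Ifit1 kept it only without BMP2 replicate 2 (otherwise 0.0615 to 0.339), Rsad2 only without BMP2+DM replicate 1 (otherwise 0.0929 to 0.283), and Ifitm1 in no such fit (0.0757 to 0.30). Without both repeat-rich libraries, 0 members were called lower and 0 higher by edgeR, beside 1.2% and 0.93% of all genes, with 2 lower and 6 higher at an unadjusted p under 0.05. No share of all genes at the unadjusted threshold was obtained for that fit, so these 2 and 6 members show no excess. With all 6 libraries, 10 of 45 members passed the unadjusted threshold in edgeR in this comparison, beside 3138 of all 14378 genes. DESeq2 on all 6 libraries called 3 lower and 4 higher.

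**Figure D5:**
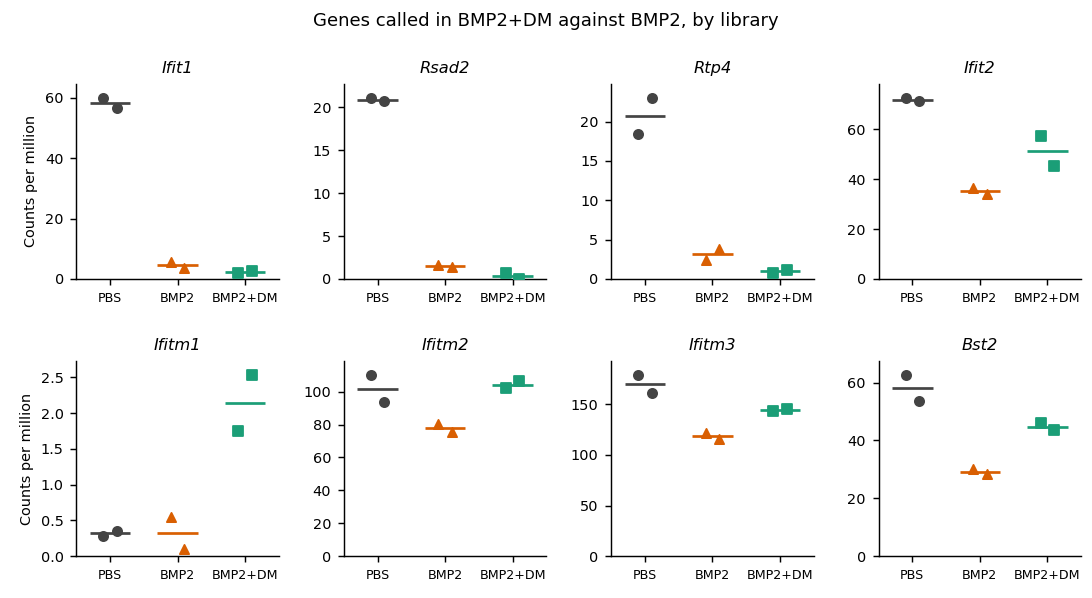
CPM in each library for the 8 members called in BMP2+DM against BMP2, on linear axes that start at 0; points are libraries and bars are group means of 2 libraries. Bst2, Ifitm3 and Ifit2 in BMP2+DM lie between BMP2 and PBS, Ifit1, Rsad2 and Rtp4 lie below both, and Ifitm1 lies above both at up to 2.53 CPM.

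Against PBS, the cells given BMP2 and dorsomorphin together remained low in antiviral transcripts. Here 40 of 45 members fell (11.5% of all genes), 30 of them at least 2-fold (3.03%), and 1 rose (9.38%), with a median of -1.89. The member that rose did so more than 2-fold, beside 1.12% of all genes, and the groups did not overlap for 43 members that were lower and 1 that was higher, beside 29.5% and 29% of all genes. This comparison shares its PBS libraries with BMP2 against PBS, and its BMP2+DM libraries with the one above, so the values are set side by side. Ifit1 had -4.58 ± 0.21 with BMP2+DM and -3.63 ± 0.19 with BMP2, and Rsad2 had -5.90 ± 0.45 and -3.80 ± 0.35. Rtp4 had -4.40 ± 0.32 and -2.72 ± 0.26. Isg15 had -3.08 ± 0.29 and -3.05 ± 0.28, and Parp14 had -1.87 ± 0.15 and -2.01 ± 0.15. Bst2 had -0.38 ± 0.12 and -0.99 ± 0.12, and Ifit2 had -0.49 ± 0.12 and -1.03 ± 0.12. The summed IFIT level was 27.3% of PBS with BMP2+DM and 21.0% with BMP2, but Ifit2 made up most of it, 51.3 of 59.5 CPM with BMP2+DM and 35.3 of 45.8 CPM with BMP2. Taken singly, Ifit1 held 4.16% of its PBS level with BMP2+DM and 8.02% with BMP2, Ifit3 7.33% and 7.49%, and Ifit3b 4.58% and 4.06%. The OAS genes held 12.7% with BMP2+DM and 16.3% with BMP2, and the membrane and surface genes 74.1% and 62.3%. Oasl2 made up most of the OAS sum, 7.42 of 8.49 CPM with BMP2+DM and 9.27 of 10.9 CPM with BMP2. The membrane and surface genes differed singly: with BMP2+DM, Rtp4 held 4.69% of its PBS level, Lgals3bp 49.2%, Bst2 77.1%, Ifitm3 84.9% and Ifitm2 102%. Ifitm1, at few counts, lay above its PBS level.

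Herc6, Isg20, Oas3 and Ifitm2 were the 4 members not called in BMP2+DM against PBS. Herc6 and Oas3 were called lower in other fits, so that 42 members fell both with no filter on low counts (adjusted p = 0.00113 for Herc6 and 0.0447 for Oas3) and with only the 2 groups compared (0.00987 and 0.0361). Herc6 was also called without BMP2 replicate 1 (0.0080) or 2 (0.0113), and Oas3 without BMP2+DM replicate 2 (0.027). Ifitm2 had a log2 fold change of 0.03 ± 0.09 (adjusted p = 0.847). Among the members called lower, Zbp1 was nearest the threshold (adjusted p = 0.0497) and lost its call in 7 of the alternative fits. Slfn5 lost its call in 4 of them, Ifi27 in 2 and Slfn2 in 1. Ifitm1 was the member that rose (2.72 ± 0.77, adjusted p = 0.0179), a call that was lost without any 1 of the 4 PBS or BMP2+DM libraries (adjusted p = 0.0561 to 0.158). Bst2 lost its call without PBS replicate 1 (0.274), BMP2+DM replicate 1 (0.0558) or BMP2+DM replicate 2 (0.136), and Ifitm3 without the same libraries (0.244, 0.0853 and 0.0734). Ifit2 lost it without BMP2+DM replicate 2 (0.0936). Without both repeat-rich libraries, 34 members were called lower and 0 higher by edgeR, beside 5.81% and 3.62% of all genes, with 1 higher at an unadjusted p under 0.05.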

How the data were processed

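The deposited files hold raw counts per gene symbol for 6 libraries, 1 per file, with 2 libraries in each of 3 groups. Per the submitters' processing notes, the authors used FastQC, Trimmomatic, STAR, HTSeq and DESeq2 with mm10. The gene annotation, strand setting and handling of shared reads were not given in the sources used here. Lines naming no gene took 53.8% to 54.2% of each file and were left out.

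The members, gene lists and tests were chosen with earlier results of these data known. Groups were taken from the treatment labels. Genes were filtered with filterByExpr (minimum count 10, minimum total 15), which left 14378 genes and all 45 members, and fitted over 6 libraries with 3 residual degrees of freedom in edgeR 4.0.16 (R 4.3.3; TMM, quasi-likelihood F test), with p-values adjusted over all genes by Benjamini-Hochberg. The SE is the log2 fold change divided by the root of F. CPM are counts divided by the TMM-scaled library size, and RPKM divide them by the exonic length in GENCODE vM21 (mm10), the source of gene positions and shared 50-base stretches. The script was tested on simulated data. All members are named; the 2 with the smallest p in BMP2 against PBS in each role, those called higher in any comparison, and those called at least 1.5-fold changed in BMP2+DM against BMP2 have full values, and other members with values were chosen after seeing them. Alternatives were DESeq2 1.42.0, RLE factors, no filter, only the 2 groups compared, a replicate block, each library left out, both repeat-rich libraries left out, 2 repeat models left out, and Ifit3 with Ifit3b summed.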

Additional observations from a re-analysis of the deposited data

How the results depend on the processing

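In BMP2 against PBS, between 38 and 42 members were called lower and 0 higher when each library was left out in turn. DESeq2 called 39 lower and 0 higher, and 33 and 0 were called without both repeat-rich libraries. In BMP2+DM against PBS the leave-one-out counts were 36 to 40 lower and 0 to 1 higher, where Ifitm1 is the member concerned, and DESeq2 and the fit without both repeat-rich libraries called 0 higher. In BMP2+DM against BMP2 they were 1 to 2 lower and 1 to 4 higher. A fit of only those 2 groups called 0 lower (3 at an unadjusted p under 0.05), and the fit without both repeat-rich libraries called 0 lower and 0 higher. RLE factors, no filter on low counts and removal of the repeat models gave counts within 1.5 times those reported. With the replicate number as a block, 42 members were lower in BMP2 against PBS, 2 lower and 4 higher in BMP2+DM against BMP2, and 40 lower and 1 higher in BMP2+DM against PBS. Whether the replicate numbers pair the samples is not known. With the repeat models left out, same-numbered libraries correlated at 0.00807, -0.0227 and -0.0378 in their deviations, which cannot exclude pairing. The models left out were those high in replicate 1 of both PBS and BMP2.

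Signs turned for members that were not called. Without both repeat-rich libraries, the log2 fold change in BMP2 against PBS was 0.55 for Herc6 and -1.75 for Ifitm1. For BMP2+DM against BMP2 it was 0.43 for Ifit3, -0.51 for Ifit3b, 0.98 for Oasl1, -0.0706 for Dhx58, -0.27 for Zbp1, -0.46 for Cmpk2, 0.32 for Samd9l and -0.0153 for Parp12. The leave-one-out ranges that crossed 0 were -1.37 to 0.38 for Herc6 and -1.61 to 0.77 for Ifitm1 in BMP2 against PBS, and -0.0743 to 0.15 for Ifitm2 in BMP2+DM against PBS. The ranges for BMP2+DM against BMP2 were -0.38 to 0.43 for Ifit3, -0.67 to 1.52 for Ifit3b, -2.19 to 0.98 for Oasl1 and -0.0704 to 0.30 for Dhx58. They were -1.36 to 1.18 for Zbp1, -0.46 to 1.97 for Cmpk2, -0.54 to 0.32 for Samd9l and -0.0151 to 0.26 for Parp12. Ranges also crossed 0 for Isg15 (-0.94 to 0.54), Herc6 (-1.21 to 0.54), Trim30a (-0.36 to 0.67), Xaf1 (-0.63 to 0.35) and Phf11d (-0.18 to 0.43). The same held for Ddx60 (-0.65 to 0.0589), Adar (-0.11 to 0.22), Parp9 (-0.0723 to 0.50) and Parp14 (-0.0658 to 0.33). Oas3 had 0 counts in each BMP2 library, and its only BMP2+DM counts were 6 in replicate 2. Its fitted values of 0.00 to 5.76 are therefore no measured sizes. The cause of the turned signs was not tested. Fits that left a group with 1 library assumed that it varied like the other groups. With 2 libraries a group and members at a few counts, such as Oas2, Oas3, Zbp1 and Ifitm1, small differences were not detectable at this depth.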

Other observations

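Relatives of the members that were not on the list were also examined, 44 genes of the same families, of which 23 could be tested. With BMP2 against PBS 12 fell and 0 rose by edgeR, beside 9.29% and 6.55% of all genes, and their median log2 fold change was -1.33. Ifi211, a PYHIN gene beside Ifi203 and Ifi204, was at 21.5 and 23.3 CPM in PBS, 2.73 and 5.35 in BMP2, and 4.65 and 5.93 in BMP2+DM (log2 fold change with BMP2 -2.48 ± 0.26, adjusted p = 1.89e-06). Mndal, of the same family, was at 3.07 and 5.48 CPM in PBS and at 0.364 and 0.286 in BMP2 (-3.66 ± 0.65). Trim30d, a relative of Trim30a, was at 11.1 and 9.14 CPM in PBS and at 3.0 and 2.0 in BMP2 (-2.01 ± 0.32). Slfn8 fell by 2.45 on the log2 scale and Slfn9 by 0.49. With dorsomorphin added to BMP2, 1 relative was called: Ifi207, which had at most 1 count in each BMP2 library, was at 0.871 and 0.777 CPM with dorsomorphin and at 1.93 and 2.0 in PBS (adjusted p = 0.0464).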
